A study of Mus musculus with 5 samples.

Results

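The extracellular matrix genes of mouse pancreatic islets were followed through the islet's cell types. The set is a list of 33 gene symbols, and all 33 symbols had a row among the 32285 genes of the count matrices. By role they are 5 fibrillar collagen genes, 3 collagen VI genes, 2 collagen IV genes, 2 multiplexin genes, 6 laminin chain genes, 3 genes of linker proteins, 2 of the SPARC family, 3 of glycoproteins, 4 of small proteoglycans and matrix Gla protein, and 3 of protease inhibitors. Levels are given as UMIs (molecules counted once each) per 1000000 UMIs of a cell type in a mouse, written CPM. The assay counts 1 end of each molecule, so transcript length does not enter these levels.

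Islets came from NOD.SCID mice (strain NOD.Cg-Prkdcscid/J) in both diet groups alike. Their scid mutation leaves no mature T or B cells, and it is the parent NOD strain that is prone to autoimmune diabetes. The 2 HC mice, fed a diet of 20% HC (hydrolyzed casein), were 7 and 9 weeks old, and the 3 chow mice were 8, 10 and 10 weeks old. The series' design text gives ages from 8 to 10 weeks, so the label of HC mouse 1 and that text differ, and values with age as a term rest on the labels. Each pancreas was digested with collagenase, islets were picked by hand and dissociated with trypsin, and 1 10x Genomics 3′ library was made for each mouse. HC mouse 2 is called chow-fed in its title and HC in its diet label. The series counts 2 HC and 3 chow mice in its design, as the diet labels do, so the diet label was used. Results are also given with the diet read from the title where that changes a call. Library names begin with FUN (HC mouse 1 and chow mouse 1) or SKY (the other 3 mice). The meaning of this prefix is not given, so values within each prefix stand beside the pooled ones.

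Matrix proteins outside cells form 2 kinds of structure. Basement membranes are thin sheets under endothelium and epithelium, built from collagen IV and laminin networks joined by nidogens and perlecan, and the interstitial matrix between them is built from fibrillar collagens, collagen VI, fibronectin and proteoglycans. In the islet, beta cells are known to rest on the basement membrane of the capillaries, which is laid down largely by endothelial cells, and pericytes and fibroblasts surround the vessels.

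The libraries held 28722244 and 29485548 UMIs in HC mice and 29796212 to 39624978 in chow mice. After filtering, 4821 and 4413 cells remained from HC mice and 3656 to 5122 from chow mice, with median UMIs per cell of 5147 and 5640 in HC against 5910 to 6959 in chow. Cells were grouped without using any of the 33 genes, and clusters were named from lists of other marker genes. The 22758 cells comprised 10921 beta-like, 4889 alpha-like, 2290 delta-like, 756 endothelial-like, 380 macrophage-like, 288 ductal-like, 121 acinar-like, 99 proliferating and 69 Schwann-like cells, and 264 stromal-like cells, of which 200 were fibroblast-like and 64 mural-like (the cells around vessels). Another 2681 cells stayed unnamed. Fibroblast-like cells numbered 15 and 94 in HC mice and 25, 24 and 42 in chow mice, so the depth behind their levels was lowest in HC mouse 1, with 31128 UMIs.

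The matrix genes were concentrated in a small number of cells. Summed over the 33 genes, the level in fibroblast-like cells was 66850 and 72270 CPM in HC mice and 69360, 76200 and 78000 CPM in chow mice. Mural-like cells followed with 22120 to 29560 CPM over the 5 mice, endothelial-like cells with 17280 to 20970 CPM and Schwann-like cells with 14360 to 17620 CPM. These 3 ranges lay well below that of the fibroblast-like cells, and the ranges of mural-like and endothelial-like cells did not overlap, while those of endothelial-like and Schwann-like cells did. Ductal-like cells had 856 to 1708 CPM. Endocrine cells were lower still, at 67.9 to 84.8 CPM in delta-like, 54.7 to 75.0 CPM in alpha-like and 32.95 to 57.0 CPM in beta-like cells. Hormone transcripts made 28.4 to 30.5% of UMIs in delta-like, 43.4 to 46.8% in alpha-like and 64.9 to 72.2% in beta-like cells. They lower all other CPM levels, so the order of these endocrine types is no order of their matrix RNA apart from hormones. No diet separated these sums in fibroblast-like, mural-like or Schwann-like cells, where HC and chow values overlapped, and in endothelial-like cells the HC values of 20970 and 19840 CPM stood above the chow values of 19640, 19500 and 17280 CPM by a margin smaller than the spread of the chow mice. In delta-like cells the HC values of 72.7 and 67.9 CPM stood below the chow values of 74.2, 84.8 and 75.0 CPM. Within that sum the 3 protease inhibitor genes, Timp1 among them, had 33.3 and 32.8 CPM in HC and 49.8, 56.5 and 50.3 CPM in chow. The lower Timp1 was known when the members were chosen. The laminin genes did not follow, at 19.3 and 13.9 CPM in HC and 10.3, 12.9 and 16.2 CPM in chow. These are sums, and they were not tested.

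**Figure D1:**
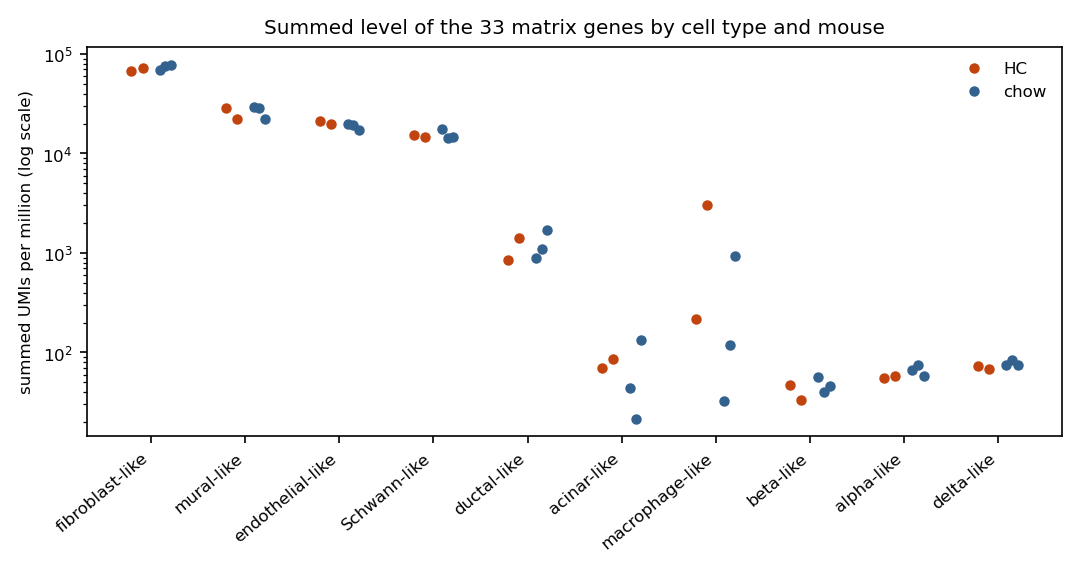
Summed level of the 33 matrix genes (CPM, log axis) in each cell type; each point is 1 mouse, HC in orange and chow in blue. Fibroblast-like cells are highest at 66850 to 78000 CPM, endocrine types lie below 100 CPM, and macrophage-like cells spread from 32.5 to 3017 CPM.

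In 20 of the 33 genes the same cell type was highest in all 5 mice. It was the fibroblast-like cells for 13 of them (Col1a1, Col1a2, Col3a1, Col5a1, Col5a2, Col6a1, Col6a2, Col6a3, Fn1, Fbln1, Dcn, Lum and Bgn), the endothelial-like cells for 4 (Col4a1, Col4a2, Lama4 and Hspg2), the Schwann-like cells for 2 (Col18a1 and Timp3) and the mural-like cells for 1 (Lamb2). For 15 of the 33 genes the lowest mouse of the highest type also stood above the highest mouse of the type ranked second. Cells were grouped by their own expression, so these rankings are a description with no test. The unnamed cells took no part in them, yet held from 8.31% (Lum) to 27.5% (Timp3) of a gene's UMIs. The shares of UMIs given below for named types leave that part out.

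**Figure D2:**
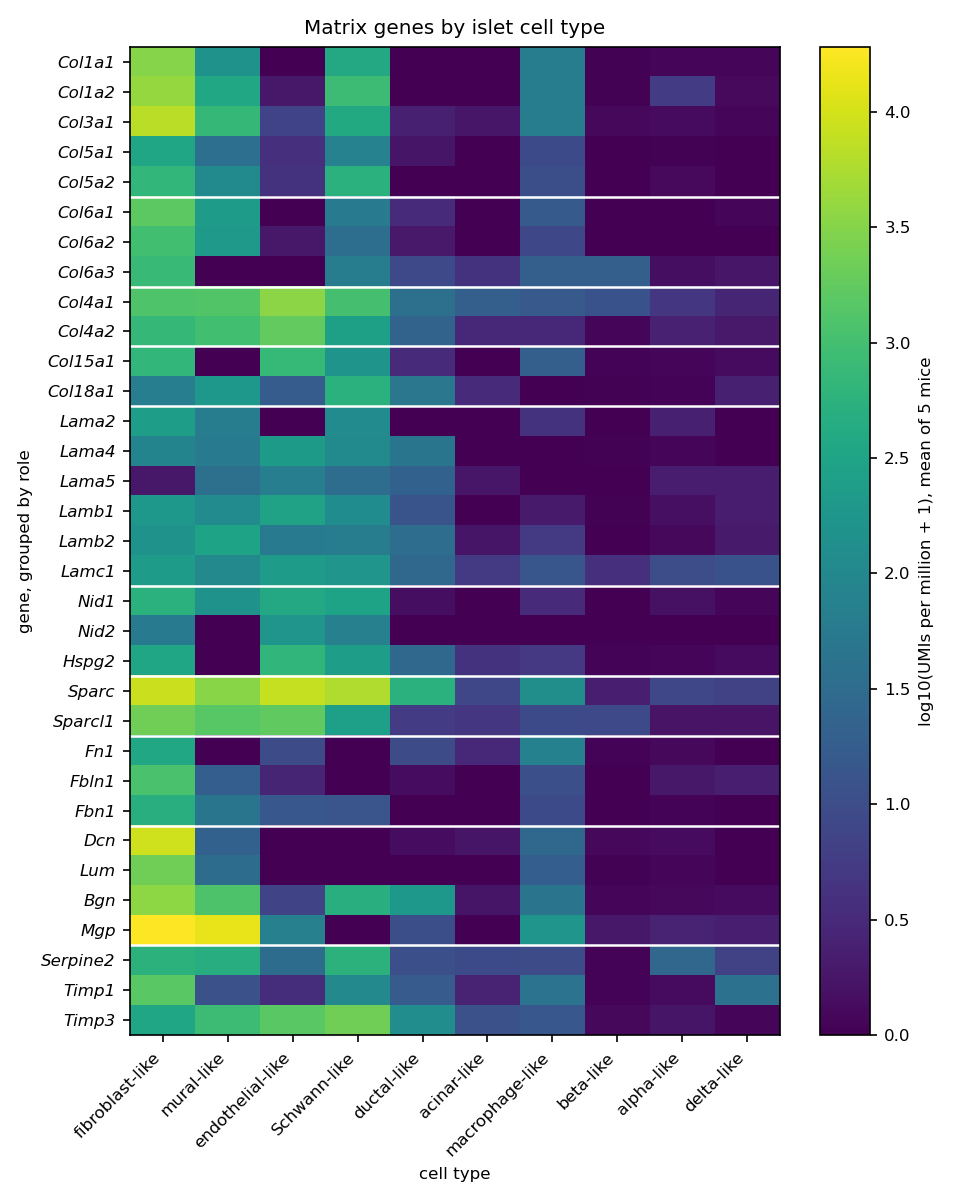
Mean level over the 5 mice of each of the 33 genes (rows, by role) in 10 cell types (columns), as log10(CPM + 1). Interstitial collagens and proteoglycans are brightest (highest) in fibroblast-like cells, collagen IV and perlecan (Hspg2) in endothelial-like cells, and the endocrine columns are dark but for a few genes such as Col6a3 and Col4a1 in beta-like cells.

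The fibrillar collagens, which form the load-bearing fibres of interstitial matrix, belonged to the fibroblast-like cells. Col3a1, the type III collagen chain, had 6682 and 7234 CPM there in HC mice and 4916, 5123 and 10530 CPM in chow mice. Chow mouse 3 was highest and the other chow mice lowest, so the HC values lay within the chow range. The type I collagen chains likewise had chow mice at both ends, Col1a2 at 4305 and 4175 CPM in HC against 2743, 3074 and 5794 CPM in chow, and Col1a1 at 3566 and 3245 CPM in HC against 1983, 2157 and 5228 CPM in chow. The type V chains, which join type I fibres and set their width, averaged 332.6 ± 113 CPM for Col5a1 and 680 ± 117 CPM for Col5a2 (SD, n = 5). Col5a2 was nearly as high in Schwann-like cells, at 551 ± 73.3 CPM (SD, n = 5), and the 2 types overlapped. Endothelial-like cells held 0 Col1a1 UMIs among 1161239, which allows up to 2.58 CPM. Such limits and the intervals given here cover counting error alone.

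The type I chains, whose products join in a single trimer, were not counted in 1 ratio everywhere. Col1a1 made 44.9% of the UMIs of the pair in fibroblast-like cells (1616 against 1980 of Col1a2; exact 95% binomial interval 43.3 to 46.6%). In Schwann-like cells the share was 30.6% (interval 22.7 to 39.6%). In alpha-like cells it was 2.94%, from 3 Col1a1 UMIs against 99 of Col1a2 (interval 0.611 to 8.36%), and it ranged from 0 to 6.67% over the 5 mice. Alpha-like cells thus carried Col1a2 with almost none of its partner, in every mouse. The level was low, 3.99 and 5.73 CPM in HC mice against 5.58, 4.24 and 4.32 CPM in chow mice, with the diets overlapping.

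Collagen VI makes beaded microfilaments around cells from the chains of Col6a1, Col6a2 and Col6a3. All 3 were highest in fibroblast-like cells, where Col6a1 averaged 1580 ± 179 CPM, Col6a2 973 ± 208 CPM and Col6a3 799 ± 261 CPM (SD, n = 5). Mural-like cells held 20 UMIs of Col6a1 and 16 of Col6a2 and 0 of Col6a3, which at their 83696 UMIs allows up to 35.8 CPM of Col6a3.

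Beta-like cells showed the reverse. They held 1842 UMIs of Col6a3 (chr1:90765923-90843971, minus strand, GENCODE on GRCm38) beside 3 of Col6a1 and 1 of Col6a2, and the Col6a3 share of the Col6a3 and Col6a1 pair was 99.8% (exact 95% interval 99.5 to 100%), against 32.6% in fibroblast-like cells (29.6 to 35.6%). Since beta-like cells were the most numerous type, they held 72.1% of all Col6a3 UMIs of the kept cells, and stromal-like cells 12.6%. The Col6a3 UMIs of beta-like cells lay in 1559 cells, not in a few. Alpha-like cells held 9 Col6a3 UMIs in all and delta-like cells 5, so the level of 13.0 to 27.1 CPM in beta-like cells was not shared by the other endocrine types. Within the beta-like cells, the mean level was 16.7, 25.9, 13.2 and 20.7 CPM in the 4 clusters.

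Collagen IV, the network of the basement membrane, was an endothelial product first. Col4a1 had 3400 and 3411 CPM in endothelial-like cells of HC mice and 3469, 3623 and 3189 CPM in those of chow mice. Its partner Col4a2 had 1634 and 1939 CPM in HC mice and 1715, 1985 and 1652 CPM in chow mice. Both genes varied little between mice and the diets overlapped. Mural-like cells (1306 ± 361 CPM of Col4a1), fibroblast-like cells (1262 ± 491 CPM) and Schwann-like cells (1049 ± 263 CPM; SD, n = 5 each) came next and overlapped one another.

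Beta-like cells departed from this pair as they did from collagen VI. Col4a1 had 13.7 and 9.04 CPM in beta-like cells of HC mice and 10.9, 9.30 and 10.9 CPM in those of chow mice, with the diets overlapping. They held 1037 Col4a1 UMIs but 17 of Col4a2, so that Col4a1 made 98.4% of the pair (exact 95% interval 97.4 to 99.1%; 96.4 to 99.5% over the 5 mice). In endothelial-like cells the share was 65.4% (64.2 to 66.6%; 63.8 to 67.5% over the mice), in fibroblast-like cells 62.1% (58.4 to 65.7%) and in alpha-like cells 72.3% (63.1 to 80.4%). The beta-like share lay above that of each of these types in all 5 mice. Beta-like cells held 14.0% of all Col4a1 UMIs, endothelial-like cells 54.0% and unnamed cells 20.8%.

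**Figure D3:**
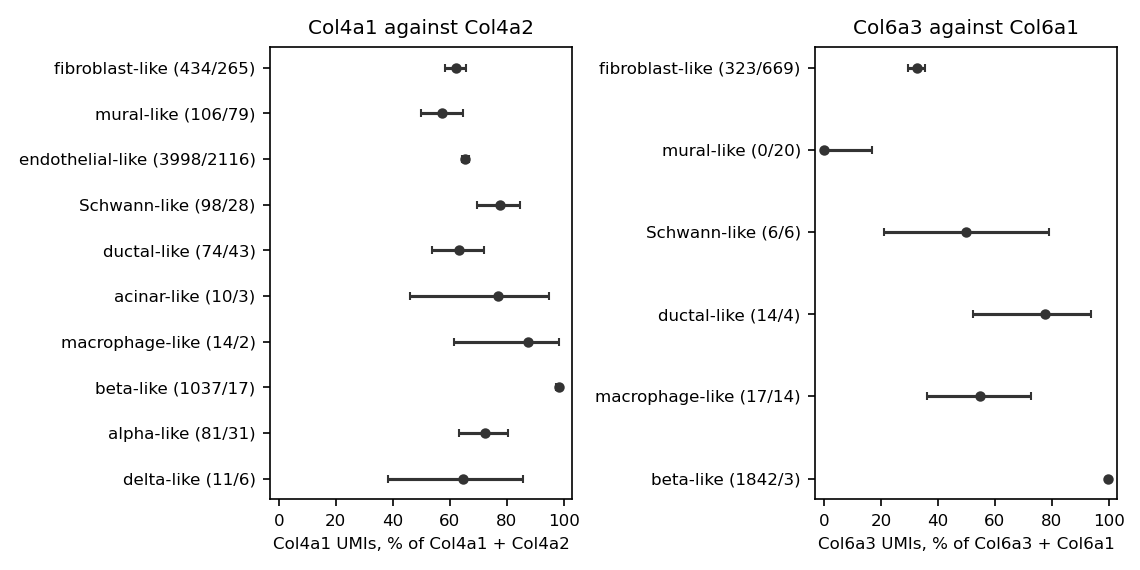
Share of Col4a1 in the UMIs of Col4a1 and Col4a2, and of Col6a3 in the UMIs of Col6a3 and Col6a1, by cell type in percent, with exact 95% binomial intervals and UMI counts in the labels. Beta-like cells sit at 98.4% and 99.8%, against 62.1% and 32.6% in fibroblast-like cells.

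Col4a1 and Col4a2 are known to lie head to head on opposite strands and to share a promoter. Their promoter windows, 250 bases before to 50 after the start of each gene, are shown because the unequal counts of the pair in beta-like cells belong to genes that start here side by side. They are RefSeq sequences on GRCm38.p6, Col4a1 at chr8:11312777-11313076 on the minus strand and Col4a2 at chr8:11312555-11312854 on the plus strand, each written 5′ to 3′ on its own strand. Capitals mark the 78 bases that both windows hold, read from opposite strands.
Col4a1: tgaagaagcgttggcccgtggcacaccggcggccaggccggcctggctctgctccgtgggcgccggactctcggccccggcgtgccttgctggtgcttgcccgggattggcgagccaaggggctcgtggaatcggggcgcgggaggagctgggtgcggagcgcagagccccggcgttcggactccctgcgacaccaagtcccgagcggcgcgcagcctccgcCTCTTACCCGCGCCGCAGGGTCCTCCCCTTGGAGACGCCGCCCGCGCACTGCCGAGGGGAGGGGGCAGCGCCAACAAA
Col4a2: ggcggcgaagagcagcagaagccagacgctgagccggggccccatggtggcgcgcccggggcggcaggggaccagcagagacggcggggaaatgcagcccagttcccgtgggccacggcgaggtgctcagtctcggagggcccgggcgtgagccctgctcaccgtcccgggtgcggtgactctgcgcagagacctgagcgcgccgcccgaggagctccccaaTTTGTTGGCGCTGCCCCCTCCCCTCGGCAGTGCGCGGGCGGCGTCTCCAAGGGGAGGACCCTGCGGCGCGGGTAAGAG
The starts lie 21 bases apart, and the annotated genes (Col4a1 at chr8:11198423-11312826, Col4a2 at chr8:11312805-11449287) overlap by 22 bases. Whether the counting used strand is not given in the sources used here, and the matrices do not record where along a gene its UMIs fell.

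The multiplexins are collagens that anchor basement membranes to the matrix beside them. Col15a1 was near equal in endothelial-like cells (742 ± 146 CPM) and fibroblast-like cells (678 ± 136 CPM; SD, n = 5 each), whose ranges overlapped, and mural-like cells held none of its UMIs. Col18a1, the source of endostatin, was instead highest in Schwann-like cells, with 682 and 542 CPM in HC mice and 774, 424 and 308 CPM in chow mice, and every mouse's value stood above its highest mural-like value of 300.5 CPM. Ductal-like cells, with a lower level of 49.3 ± 8.12 CPM but more RNA in all, held 32.8% of the Col18a1 UMIs. Unnamed cells held 23.7% and Schwann-like cells 16.9%.

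Laminins are trimers of an alpha, a beta and a gamma chain, and the cell types differed in the chains they held. Lama4, the alpha chain of vessel walls, was highest in endothelial-like cells in all 5 mice at 210.5 ± 38.9 CPM, and Lama5, the other vascular and epithelial alpha chain, in 4 of 5 mice at 66.4 ± 26.6 CPM. Lama2, the alpha chain of muscle and peripheral nerve, was highest on average in fibroblast-like cells at 251 ± 104 CPM, yet they ranked first in 2 of the 5 mice, and endothelial-like cells held none of its UMIs. Alpha-like cells carried Lama5 with little Lama4: 26 UMIs against 3, a Lama4 share of 10.3% (exact 95% interval 2.19 to 27.3%), against 75.8% in endothelial-like cells (70.9 to 80.3%). They held as many UMIs of Lama2, 26 in 26 cells, which was 14.4% of all Lama2 UMIs.

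The beta chains also differed between cell types. Lamb1 made 84.2% of Lamb1 and Lamb2 UMIs in endothelial-like cells (351 against 66; exact 95% interval 80.3 to 87.5%), but 26.1% in ductal-like cells (23 against 65; 17.3 to 36.6%) and 26.5% in mural-like cells (9 against 25; 12.9 to 44.4%). Mural-like cells were highest in Lamb2 in all 5 mice, with 358 and 351 CPM in HC mice and 132, 480 and 180 CPM in chow mice, although these rest on 25 UMIs. Lamc1, the gamma chain of most laminins, was found in many types. Fibroblast-like cells (232 ± 110 CPM) and endothelial-like cells (220 ± 45.9 CPM) overlapped. Endothelial-like cells held 21.5%, beta-like cells 21.2%, unnamed cells 19.8% and alpha-like cells 15.9% of the Lamc1 UMIs.

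Nidogens and perlecan (Hspg2) join the laminin and collagen IV networks. Hspg2 was highest in endothelial-like cells, at 711 and 599 CPM in HC mice and 710, 544.5 and 684 CPM in chow mice, each above the highest fibroblast-like value of 431 CPM. Nid2 was highest there in 4 of 5 mice (168 ± 24.6 CPM), while Nid1 was highest in fibroblast-like cells in 4 of 5 mice (543 ± 116 CPM, against 378 ± 80.8 CPM in endothelial-like cells). Mural-like cells had 0 UMIs of Nid2 and of Hspg2. Nid2 exons overlap those of Rtraf on the other strand. Beta-like cells had 2 Nid2 UMIs and 70.0 CPM of Rtraf. The part of Rtraf in the Nid2 counts was not tested.

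The SPARC family binds collagens and tunes how cells hold to matrix. Sparc was among the most abundant members in 4 types at once, at 8532 ± 2400 CPM in fibroblast-like, 8037 ± 719 CPM in endothelial-like, 5986 ± 387 CPM in Schwann-like and 3333 ± 906 CPM in mural-like cells (SD, n = 5 each). Fibroblast-like and endothelial-like cells exchanged the first place between mice. Ductal-like cells had 538 ± 109 CPM. Sparcl1 (hevin) was spread over fibroblast-like (2266 ± 1098 CPM), endothelial-like (1690 ± 190 CPM) and mural-like cells (1492 ± 567 CPM), whose ranges overlapped, and beta-like cells held 15.8% of its UMIs.

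Most glycoprotein and proteoglycan transcripts lay in fibroblast-like cells. Dcn (decorin, which binds collagen fibrils) had 5108 and 10580 CPM in fibroblast-like cells of HC mice and 11140, 10460 and 9189 CPM in those of chow mice. Macrophage-like cells held 24 Dcn UMIs, in 5 of 380 cells, and mural-like cells 2, while endothelial-like, Schwann-like and delta-like cells held none. Lum (lumican) averaged 2217 ± 667 CPM and Fbln1 (fibulin-1) 1146 ± 343 CPM. Mural-like cells, which ranked second in both, held 3 Lum UMIs and 1 Fbln1 UMI, each in a single cell. Fbn1 (fibrillin-1, the core of microfibrils) averaged 506 ± 251 CPM and Fn1 (fibronectin) 348 ± 170 CPM. Bgn (biglycan) averaged 3605 ± 410 CPM in fibroblast-like cells, and ductal-like cells, at 193 ± 77.7 CPM, held 15.3% of its UMIs.

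Mgp, matrix Gla protein, an inhibitor of calcification, was the most abundant member in fibroblast-like and mural-like cells. It had 13300 and 19210 CPM in fibroblast-like cells of HC mice and 22470, 26290 and 14210 CPM in those of chow mice, and 13970 and 9565 CPM in mural-like cells of HC mice and 17530, 16220 and 11150 CPM in those of chow mice. Both types were high in every mouse, and the diets overlapped in both. Schwann-like cells held 0 Mgp UMIs among 98851, which allows up to 30.4 CPM.

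The protease inhibitors were spread over several types. Timp3, a metalloprotease inhibitor that stays bound to matrix, was highest in Schwann-like cells in all 5 mice, with 2216 and 2091 CPM in HC mice and 2738, 2087 and 1973 CPM in chow mice. The endothelial-like values reached 2051 CPM, so the 2 types overlapped across mice. Serpine2 (protease nexin-1, an inhibitor of thrombin and plasminogen activators) averaged 570 ± 191 CPM in fibroblast-like, 557 ± 162 CPM in Schwann-like and 468 ± 351 CPM in mural-like cells (SD, n = 5 each), with overlapping ranges. Alpha-like cells, at 15.8 to 31.4 CPM, held 39.0% of its UMIs and stromal-like cells 24.7%. Timp1, the secreted inhibitor of metalloproteases, had 5012 and 520 CPM in fibroblast-like cells of HC mice and 380, 108 and 1622 CPM in those of chow mice. HC mouse 1 stood far above the rest on 15 cells and chow mouse 3 was second, so the groups overlapped. Delta-like cells held 23.6% of the Timp1 UMIs and stromal-like cells 48.8%.

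Each endocrine type thus had its own few matrix transcripts. In alpha-like cells the 3 highest members were Serpine2, Lamc1 (9.44 ± 1.45 CPM) and Sparc (7.18 ± 3.22 CPM; SD, n = 5). In beta-like cells they were Col6a3, Col4a1 and Sparcl1, and in delta-like cells Timp1, Lamc1 (11.2 ± 2.84 CPM) and Serpine2 (5.90 ± 2.03 CPM). Lamc1 was held by all 3. The Col4a1 UMIs of beta-like cells lay in 980 of 10921 cells, with at most 3 in a cell. Of the abundant stromal genes, Mgp stood at 0.884 CPM in beta-like cells, with 55.3% of its UMIs in 5 cells, and Dcn at 0.247 CPM, with 63.0% in 5 cells. The part of stray RNA in the endocrine levels was not tested.

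**Figure D4:**
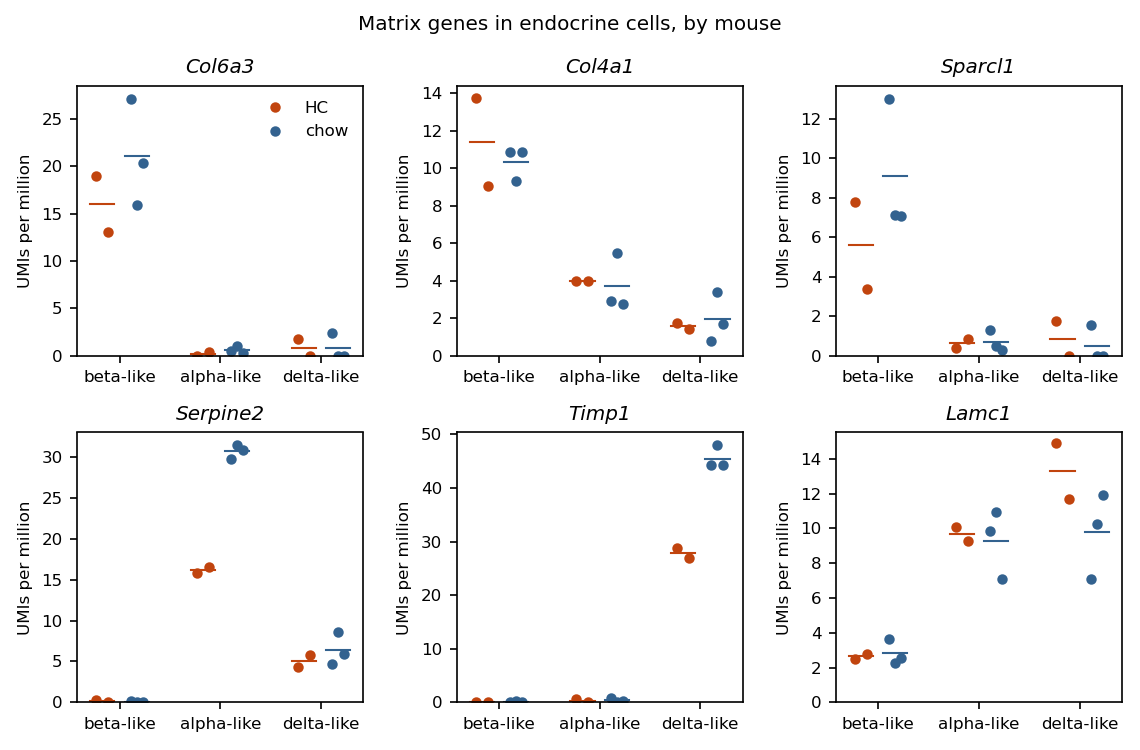
Level (CPM) of 6 matrix genes in beta-like, alpha-like and delta-like cells; each point is 1 mouse, HC on the left in orange and chow on the right in blue, and bars are group means. Col6a3, Col4a1 and Sparcl1 are found in beta-like cells, Serpine2 in alpha-like cells and Timp1 in delta-like cells. The HC points of Serpine2 and Timp1 lie below all chow points. Both differences were known when the members were chosen.

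The diets were compared in 7 types with at least 20 cells in each mouse. UMIs were summed per mouse and type, and all genes above a filter on low counts were tested with edgeR's quasi-likelihood test. A gene was called at a Benjamini-Hochberg adjusted p under 0.05. The filter left 5 of the 33 matrix genes in alpha-like cells, 6 in beta-like, 2 in delta-like, 11 in ductal-like, 15 in endothelial-like, 2 in macrophage-like and 29 in stromal-like cells, so most members had too few UMIs for a test in endocrine types. Across these types 1 member was called, Serpine2 in alpha-like cells. The members were chosen with earlier results of these data known, among them the lower Serpine2 in alpha-like and Timp1 in delta-like cells. Neither result is therefore independent of the choice of genes. Each mouse gave 1 library, so p-values measure the spread between mice.

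Serpine2 (chr1:79794197-79861180, minus strand, GENCODE on GRCm38) fell in alpha-like cells of HC mice. It had 15.8 and 16.5 CPM there, against 29.8, 31.4 and 30.9 CPM in chow mice, from 83 and 75 UMIs against 112, 126 and 100. The 2 HC values lay close together and far below the 3 chow values, which were as close to one another, with means of 16.1 ± 0.528 CPM in HC (SD, n = 2) and 30.7 ± 0.846 CPM in chow (SD, n = 3). The log2 difference of HC over chow was -1.02 (SE 0.159; edgeR quasi-likelihood adjusted p = 0.0135). It was -0.99 within FUN and -0.95 within SKY. In alpha-like cells 7 of 10683 genes were called, 0.0655% of those tested, and a place of both HC mice below all chow mice was shared by 9.59% of genes.

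Serpine2 was 1 of 7 genes called in alpha-like cells, all lower in HC; the others were Phlda3, Spc25, Cox6b2, Gadd45g, Ly6e and Cdkn1a. Of the 18 alternative settings tried, its adjusted p stayed under 0.05 in 11 and its log2 difference ran from -1.07 to -0.86 over all 18. Leaving out HC mouse 1 gave an edgeR adjusted p of 0.0922, leaving out HC mouse 2 gave 0.0216, and leaving out a chow mouse gave 0.119 (mouse 1), 0.163 (mouse 2) or 0.0589 (mouse 3). With HC mouse 2 taken as chow, as its title has it, the log2 difference was -0.87 (edgeR adjusted p = 0.423). With either HC mouse left out, and with the diet by title, 1 HC mouse remains, which is assumed to vary as the chow mice do. With age as a term the difference was -0.95 (edgeR adjusted p = 0.0618), and under the stricter cell filter -0.86 (edgeR adjusted p = 0.0528).

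Markers of other cell types were looked at in the same alpha-like cells. The 11 fibroblast markers, 3 of them at 0, summed to 11.02 and 13.0 CPM in HC mice and 13.0 to 15.7 CPM in chow mice. The 12 Schwann markers, none at 0, summed to 37.1 and 26.4 CPM in HC and 29.7 to 44.9 CPM in chow. The 18 mural markers, 3 of them at 0, summed to 40.5 and 59.0 CPM in HC and 38.6 to 78.1 CPM in chow. The HC and chow ranges overlapped in the Schwann and mural lists and in the fibroblast list at its edge. The 19 macrophage markers, 3 of them at 0, did separate the diets, at 85.9 and 89.4 CPM in HC and 53.7, 57.3 and 61.4 CPM in chow, and macrophage-like cells themselves held 8 Serpine2 UMIs, in 2 of 380 cells. The 5 PP cell markers ranged from 9678 to 26260 CPM in HC and from 5849 to 41510 CPM in chow; a cluster of 714 cells led by Ppy and Pyy was left unnamed and is not among the alpha-like cells. Beta-like cells, the most numerous type, held Serpine2 UMIs in 11 of 10921 cells. The part of other cells in the difference was not tested.

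The promoter window of Serpine2, the member called, is shown as RefSeq gives it (GRCm38.p6, chr1:79858616-79858915, minus strand, 5′ to 3′); RefSeq places the start inside the longer GENCODE gene. Capitals mark its matches to the GC box GGGCGG on either strand, of which a count with overlaps finds 6.
Serpine2: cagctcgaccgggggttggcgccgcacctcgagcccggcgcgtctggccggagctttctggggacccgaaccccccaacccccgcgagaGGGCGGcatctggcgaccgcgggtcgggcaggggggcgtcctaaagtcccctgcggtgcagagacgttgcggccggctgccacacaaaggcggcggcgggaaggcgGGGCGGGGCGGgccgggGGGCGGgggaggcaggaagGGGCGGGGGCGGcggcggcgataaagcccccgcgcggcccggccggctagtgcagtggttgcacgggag
The letters CCAAT, for the box of that name, had no match in this window, nor had TATAAA for the TATA box or TGANTCA for AP-1. RefSeq windows of the same length were found for 23 of the 33 members. The GC box was found for 17 of these 23 members, and in 35.7% of the 32851 windows of all genes. CCAAT was found for 7 members and in 37.4% of windows. TATAAA was found for 1 member (Col3a1) and in 13.6% of windows, and TGANTCA for 1 (Col6a1) and in 7.81%. A member counts if any window under its symbol matches, while the percentages are of single windows, so they are unlike measures. Matches were counted on both strands, and a match is a string of letters and not a binding site.

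Timp1 in delta-like cells had the same placing of mice without being called by edgeR or DESeq2. It had 28.9 and 27.0 CPM in HC mice, against 44.2, 48.0 and 44.3 CPM in chow mice, from 33 and 37 UMIs against 56, 56 and 52. Both HC mice lay below all chow mice, a place held by 8.21% of the genes tested in delta-like cells. The log2 difference was -0.70 (SE 0.215; edgeR adjusted p = 1.00), with -0.56 within FUN and -0.74 within SKY, and 2 of 9058 genes (0.0221%) were called. The 11 fibroblast markers, 6 of them at 0, summed to 20.1 and 18.2 CPM in HC and 9.48 to 18.8 CPM in chow. The 19 macrophage markers, 4 of them at 0, again separated the diets, at 279.3 and 278.7 CPM in HC and 247, 214 and 267 CPM in chow, and macrophage-like cells held 39 Timp1 UMIs, in 5 of 380 cells. The part of other cells in the Timp1 values was not tested. The other delta-like member, Lamc1, had a log2 difference of 0.44 (SE 0.366). Timp1 (chrX:20870166-20874735, plus strand) lies within Syn1 on the other strand, with no exon in common. Syn1 stood at 19.6 CPM in delta-like cells and 16.6 CPM in alpha-like cells, which held Timp1 UMIs in 6 of 4889 cells. The part of Syn1 in the Timp1 counts was not tested.

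The Timp1 window (RefSeq, GRCm38.p6, chrX:20869916-20870215, plus strand, 5′ to 3′) is printed to set beside that of Serpine2. Capitals mark its CCAAT match, which lies on the other strand, and its GC box match, which also lies on the other strand.
Timp1: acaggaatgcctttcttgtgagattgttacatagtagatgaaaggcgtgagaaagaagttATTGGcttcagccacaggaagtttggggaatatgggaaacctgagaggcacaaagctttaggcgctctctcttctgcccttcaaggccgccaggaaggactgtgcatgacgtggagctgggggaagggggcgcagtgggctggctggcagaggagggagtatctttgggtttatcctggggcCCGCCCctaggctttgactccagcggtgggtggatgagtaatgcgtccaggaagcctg
It has 1 GC box match where Serpine2 has 6.

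In beta-like cells 0 of 6 members were called by edgeR or DESeq2 and 2 had an edgeR p under 0.05, beside 1 of 11901 genes called (0.0084%). The members' median log2 difference was -0.23, against -0.00 for all genes tested. Col6a3 had 19.0 and 13.0 CPM in HC mice, against 27.1, 15.9 and 20.3 CPM in chow mice, and HC mouse 1 lay inside the chow range. After scaling for composition each HC value came below each chow value, as in 10.9% of genes, and the log2 difference was -0.47 (SE 0.143; edgeR adjusted p = 0.800; -0.54 within FUN and -0.49 within SKY). Sparcl1 had 7.81 and 3.38 CPM in HC mice, against 13.0, 7.15 and 7.08 CPM in chow mice, again with HC mouse 1 inside the chow range until scaled. Its log2 difference was -0.78 (SE 0.294; edgeR adjusted p = 0.955; -0.75 within FUN and -1.08 within SKY). Sparcl1 was called by edgeR with the library prefix as a term (-0.92, adjusted p = 0.0242), with age as a term (-1.26, adjusted p = 0.0095) and without the low-count filter (-0.78, adjusted p = 0.00139).

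Col4a1, Lamc1, Sparc and Mgp were the other members tested in beta-like cells. Their log2 differences were 0.05 (SE 0.136), -0.13 (SE 0.223), -0.22 and -0.24, and none passed the threshold with edgeR. The 18 endothelial markers, 1 of them at 0, summed to 20.0 and 14.9 CPM in beta-like cells of HC mice. Those of chow mice had 16.9 to 23.8 CPM, so the sums overlapped, as did the Sparcl1 levels before scaling. In alpha-like cells the other 4 members tested, Lamc1, Col1a2, Col4a1 and Sparc, had log2 differences of -0.04, -0.06, -0.02 and 0.02. The 5 members' median of -0.04 stood beside 0.00 for all genes.

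**Figure D5:**
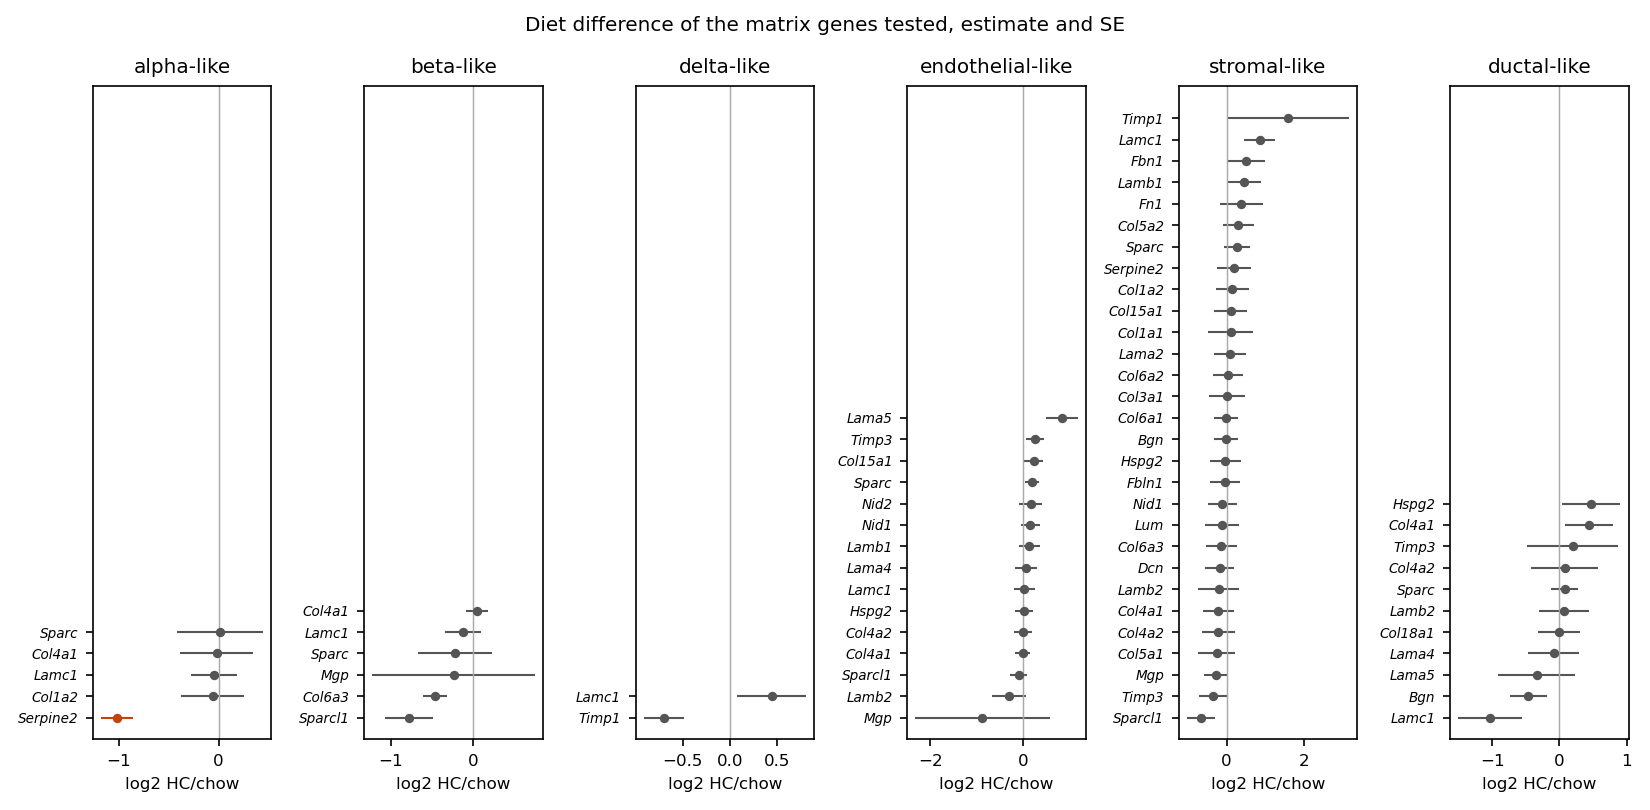
Log2 difference of HC over chow with its SE for each member tested, in 6 of the 7 cell types, from edgeR. Serpine2 in alpha-like cells, in orange, at -1.02 is the 1 member past the threshold, and Timp1 in stromal-like cells, at 1.59, has an SE of 1.57.

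In endothelial-like cells, the main source of collagen IV, 0 of 15 members were called by edgeR or DESeq2 and 1 had an edgeR p under 0.05, beside 1 of 4540 genes called (0.022%). The members' median log2 difference was 0.06, with 10 of 15 above 0, and the median of all genes was -0.00. Lama5 had 103 and 83.3 CPM in HC mice, against 55.6, 54.4 and 35.5 CPM in chow mice, on 21 and 31 UMIs against 13, 13 and 4. Each HC value exceeded each chow value, as in 10.4% of genes, at a log2 difference of 0.83 (SE 0.335; edgeR adjusted p = 0.999; 0.81 within FUN and 0.85 within SKY). Sparc was placed in the same way with a smaller gap, 8920 and 8506 CPM in HC against 7995, 7703 and 7061 CPM in chow, a log2 difference of 0.19 (SE 0.155).

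Timp3, with the second smallest p here, had 2051 and 1432 CPM in endothelial-like cells of HC mice and 1189, 1575 and 1563 CPM in those of chow mice. Its log2 difference of 0.26 (SE 0.200) was 0.79 within FUN and -0.07 within SKY, so it rested on HC mouse 1. For the collagen IV genes the difference was smaller than its error, -0.02 (SE 0.171) for Col4a1 and -0.00 (SE 0.188) for Col4a2.

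In stromal-like cells, where 29 of 33 members could be tested, 0 were called by edgeR, and 0 of 1356 genes in all (0%); 14 genes had an edgeR p under 0.05, none of them a member. DESeq2 also called 0. The members' median log2 difference was -0.01, with 14 of 29 above 0, and that of all genes -0.01. Lamc1 had the smallest p. In fibroblast-like cells it had 385.5 and 283 CPM in HC mice, against 148, 108 and 236.5 CPM in chow mice. Each HC value exceeded each chow value, as did 7.15% of all genes in stromal-like cells, at a log2 difference of 0.85 in stromal-like cells (SE 0.410; edgeR adjusted p = 1.00; 1.25 within FUN and 0.88 within SKY).

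Sparcl1 in stromal-like cells had a log2 difference of -0.66 (SE 0.362), which was -1.28 within FUN and -0.06 within SKY. In fibroblast-like cells it had 1157 and 1873 CPM in HC mice, against 2743, 3937 and 1622 CPM in chow mice, and HC mouse 2 lay above chow mouse 3. Fbn1, at 835 and 479 CPM in HC and 169, 404.5 and 642 CPM in chow in those cells, overlapped likewise, with 0.50 (SE 0.478) in stromal-like cells.

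Fibroblast-like cells on their own, a comparison added after the data were seen and needing at least 10 cells in each mouse, gave 0 of 27 members called and 0 of 864 genes (0%). DESeq2 called 0, and 7 genes, 1 of them the member Sparcl1, had an edgeR p under 0.05. The members' median log2 difference was -0.13, beside 0.01 for all genes. Sparcl1 had -0.84 (SE 0.381; edgeR adjusted p = 0.998) and Lamc1 0.81 (SE 0.404), the 1 member with each HC value above each chow value, a place shared by 5.56% of genes there. Dcn had -0.38 (SE 0.336), but -1.22 within FUN and 0.30 within SKY. Timp1 had the widest error, 1.79 (SE 1.58). Summed mural markers in fibroblast-like cells were 7035 and 2247 CPM in HC mice and 3843 to 4530 CPM in chow mice, and their part in these values was not tested.

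Fibroblast-like cells of single mice differed within a diet. The 5 fibrillar collagen genes together stood at 15650 and 15670 CPM in HC mice and 10510, 11160 and 22840 CPM in chow mice. Mgp ran the other way, at its highest in chow mice 1 and 2, where the fibrillar collagens were lowest. Sparcl1 was highest in these same chow mice, and Sparc was highest in chow mouse 3 and in HC mouse 1. These are values of 5 mice and were not tested.

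In ductal-like cells 0 of 11 members and 0 of 6314 genes (0%) were called, with 197 genes at an edgeR p under 0.05 and 0 calls by DESeq2. Lamc1 had 10.8 and 18.1 CPM in HC mice, against 21.5, 28.3 and 49.2 CPM in chow mice, from 3 and 10 UMIs against 10, 13 and 10. Each HC value was under each chow value, as in 8.49% of genes, at a log2 difference of -1.03 (SE 0.478; edgeR adjusted p = 1.00; -0.78 within FUN and -0.93 within SKY). Islet hormone transcripts made 31.6% and 3.505% of ductal-like UMIs in HC mice and 4.66 to 29.6% in chow mice, and they lower all other CPM levels where they are high. Bgn had a log2 difference of -0.47 (SE 0.276) and Col4a1 of 0.43 (SE 0.357).

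In macrophage-like cells 0 of 2 members were called by edgeR or DESeq2 and 0 had an edgeR p under 0.05, beside 1 of 1849 genes called (0.0541%). The 2 were Sparc, with a log2 difference of 2.38 (SE 0.944; edgeR adjusted p = 0.998), and Mgp, with 2.88 (SE 1.55). Sparc had 90.8 and 427 CPM in HC mice, against 10.8, 32.3 and 91.5 CPM in chow mice, and Mgp 68.1 and 650 CPM in HC against 0, 10.8 and 110 CPM in chow. Both overlapped between the diets, Sparc at the edge of its range. Sparc was called by edgeR with the library prefix as a term (2.69, adjusted p = 0.00149), with age as a term (3.82, adjusted p = 0.000227), without the low-count filter (2.42, adjusted p = 0.00138) and without HC mouse 1 (3.04, adjusted p = 2.65e-08), which leaves HC mouse 2 alone in its group, and with the diet by title it turned to -0.81 (adjusted p = 0.999). Mgp was called with age as a term (4.99, adjusted p = 0.04) and turned to -1.65 by title (adjusted p = 0.999). The matrix UMIs of these cells lay in very few of them: in HC mouse 2, 96.3% of 594 matrix UMIs were in 3 of 101 cells, and without the 3 highest cells of each mouse the summed level was 94.9 and 121 CPM in HC and 0, 45.6 and 461.5 CPM in chow. Fn1, which macrophages are known to make, had 0 and 50.8 CPM in HC mice and 0, 10.8 and 317 CPM in chow mice.

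Whether the diet difference itself differed between cell types was tested as an interaction, for all 21 pairs of the 7 types. No member was called in any pair, and 0 to 2 of 10549 genes were called per pair (0, 0.00948 or 0.019%). For Serpine2 the diet difference in alpha-like cells minus that in stromal-like cells was -1.14 (edgeR adjusted p = 0.327), and minus that in beta-like cells -1.90 (adjusted p = 1.00). The lower Serpine2 level was therefore not shown to be particular to alpha-like cells. The same holds for Lamc1, whose differences had opposite signs in stromal-like and ductal-like cells.

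The share of matrix-making cells in the islets did not differ beyond the spread of the mice. Stromal-like cells made 0.477% and 2.47% of kept cells in HC mice and 1.204%, 0.722% and 1.08% in chow mice, a difference of 0.473 points (two-sided exact permutation test over 10 splits, p = 0.8, with 0.1 the smallest possible). Endothelial-like cells made 2.22% and 6.19% in HC and 3.47%, 3.26% and 1.73% in chow, a difference of 1.38 points (exact permutation p = 0.5). HC mouse 2 was highest in both and HC mouse 1 below the chow mean in both. Accordingly the differences were -0.73 and -1.25 points within FUN and 1.57 and 3.69 points within SKY for stromal-like and endothelial-like cells. Handpicking and trypsin can set such shares, and their part here was not tested.

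Genes that work beside the matrix members were taken from 5 further lists. They are matrix receptors (24 genes), collagen synthesis and crosslinking (18), matrix proteases (19), TGF-beta signalling (19) and other basement membrane and matrix genes (32). No gene of these lists was called in either direction in any of the 7 types or in fibroblast-like cells with edgeR, with 10 receptors, 13 synthesis genes, 5 proteases, 7 TGF-beta genes and 4 other matrix genes tested in alpha-like cells and 15, 14, 5, 5 and 8 in beta-like cells. In alpha-like cells the smallest p-values belonged to Adamts9, a protease of proteoglycans, at 0.83 (SE 0.286; adjusted p = 0.635), Timp2, a metalloprotease inhibitor, at -0.35 (SE 0.130; adjusted p = 0.658) and Sdc4, a syndecan of the cell surface, at -0.36 (SE 0.138; adjusted p = 0.658). In beta-like cells they belonged to Timp2, at -0.44 (SE 0.145; adjusted p = 0.895), and Emilin1, an elastic fibre glycoprotein, at 0.33 (SE 0.114; adjusted p = 0.930). Among the receptors in beta-like cells Itga6, the alpha chain of a laminin receptor, came first at -0.61 (SE 0.224; adjusted p = 0.930).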

How the data were processed

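Single islet cells of 5 NOD.SCID mice (2 HC, 3 chow) were sequenced as 1 10x Genomics 3′ version 3 library per mouse. The authors deposited raw UMI counts per gene and cell barcode for each mouse. Cell Ranger 4.0.0 and the build mm10 are named per the submitters' processing notes, and the barcodes as deposited had at least 500 UMIs. Library pairs shared 4 to 14 cell barcodes.

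Cells with at least 1000 UMIs, 500 genes and at most 15% mitochondrial UMIs were kept. They were clustered with scanpy 1.11.5 and leidenalg 0.10.2 on 2000 variable genes, 30 components, 15 neighbours and resolution 1, with the 33 matrix genes left out, into 24 clusters. A cluster took a type's name where at least 3 of that type's markers were among its 10 leading genes, at least 2 times as many as of any other type. The mean level of its own markers, relative to the cluster highest in each, had to be at least 0.5, and that of other lists below 0.25. PP markers were not counted against alpha-like clusters, nor dendritic against macrophage-like or mural against fibroblast-like ones, and proliferating clusters, whose beta or alpha marker level reached 0.719 and 0.607, were not held to the 0.25 limit. These naming criteria were fixed with the clusters already in view, ahead of the diet tests reported here. Earlier diet results of these data were known, so the criteria cannot be taken as blind to diet. Scrublet marked 168 doublets, 162 of them in HC mouse 2, which was taken as a failed call, and none were removed. In all, 50 endothelial-like, stromal-like or macrophage-like cells had at least 5% hormone UMIs.

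Counts were summed per mouse and type and tested with edgeR 4.0.16 in R 4.3.3 (TMM scaling, filterByExpr, robust quasi-likelihood, two-sided, Benjamini-Hochberg over all genes tested in the type). The diet effects of types were compared in 1 model with the mouse as a block. An SE is the size of the log2 difference divided by the square root of F. The alternatives were RLE size factors, DESeq2 1.42.0, no low-count filter, prefix or age as a term, diet by title, hormone genes left out, each mouse left out, resolutions 0.5 and 2, the matrix genes kept in clustering, a stricter cell filter (2000 UMIs, 1000 genes, 10% mitochondrial) and removal of hormone-rich cells or of the 6% highest doublet scores.

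Described in full are members called, the 3 of smallest p in each tested type, the 3 of highest level in stromal-like, endothelial-like, macrophage-like and endocrine types, and every member whose highest type was not stromal-like or endothelial-like in all mice. The members, lists and several tests were chosen with earlier results of these data known, among them the lower Serpine2 in alpha-like and Timp1 in delta-like cells. Mouse numbers follow accession order and pair nothing.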

Additional observations from a re-analysis of the deposited data

How the results depend on the processing

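No paired analysis was possible because the labels give no replicate numbers that the diets share. Over all alternatives, 344 values of single members kept their direction and their side of the threshold. Another 14 turned direction, and the rest changed their side of the threshold. Members called by edgeR changed as follows. In alpha-like cells the count of 1 was 0 with age as a term, with the diet by title and under the stricter cell filter. In beta-like cells 1 member (Sparcl1) was called without the low-count filter, with the library prefix fitted and with age fitted. In endothelial-like cells 1 (Mgp) was called with age as a term. In macrophage-like cells 2 were called without the filter, 1 with prefix and 2 with age as a term: Sparc each time, with Timp1 beside it where the filter was left out and Mgp with age. Leaving out 1 mouse gave 0 to 1 members called in alpha-like and 0 to 6 in macrophage-like cells, where the 6 came without HC mouse 1 (Bgn, Col1a1, Col1a2, Col3a1, Sparc and Timp1), and 0 to 0 in beta-like, delta-like, ductal-like, endothelial-like, stromal-like and fibroblast-like cells. The interaction gave 0 to 15 member calls over all pairs, 15 of them without HC mouse 1. With 1 mouse left out, a single highest type in every mouse held for 20 to 23 members. That count cannot fall below 20, since leaving out a mouse only removes a condition. The count was 19 without hormone-rich cells or without the highest doublet scores. Fits without an HC mouse, and by title, hold 1 HC mouse, which is assumed to vary as the chow mice do. The cause of these changes was not tested.

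Counts over all genes moved more. In alpha-like cells (7) they were 31 without the filter, 16 with age and 23 with the diet by title. In beta-like cells (1) they were 11 with DESeq2, 49 without the filter, 18 with prefix, 11 with age and 4 by title. In delta-like cells (2) they were 8 without the filter and 5 with age. In endothelial-like cells (1) they were 2 with DESeq2, 8 without the filter, 4 with prefix, 12 with age, 30 by title, 2 with the members kept in clustering, and 0 without hormone-rich cells or without the highest doublet scores. In macrophage-like cells (1) they were 5 without the filter, 2 with prefix, 5 with age, 2 by title, 2 at resolution 0.5, and 0 with hormone genes left out or without hormone-rich cells. In ductal-like cells (0) they were 5 without the filter, 5 with prefix and 19 with age, and in stromal-like and fibroblast-like cells (0) 3 each without the filter. With 1 mouse left out they ran from 0 to 35 in alpha-like, 0 to 8 in beta-like, 0 to 8 in delta-like, 0 to 0 in ductal-like, 0 to 19 in endothelial-like, 0 to 20 in macrophage-like, 0 to 5 in stromal-like and 0 to 5 in fibroblast-like cells.

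Directions turned for several small differences. By title the share of stromal-like cells differed by -0.89 points and that of endothelial-like cells by -1.44 points, and with 1 mouse left out they ran from -0.523 to 1.47 and from -0.601 to 3.37 points, the lowest without HC mouse 2. By title Col4a1 in ductal-like cells turned to -0.14, Sparc in macrophage-like cells to -0.81 and Mgp there to -1.65. Col1a2 in alpha-like cells turned to 0.0875 with members kept in clustering and 0.131 under the stricter filter, and with 1 mouse left out it ran from -0.35 to 0.209, positive without chow mouse 1 or HC mouse 1. Lamc1 in alpha-like cells turned to 0.00809 by title, 0.0389 with members kept, 0.233 under the stricter filter and 0.0293 without the highest doublet scores, and with 1 mouse left out it ran from -0.17 to 0.0777, positive without chow mouse 2. With 1 mouse left out Lamc1 in beta-like cells ran from -0.363 to 0.0904 and Dcn in fibroblast-like cells from -1.13 to 0.132, both positive without HC mouse 1. No value was had for delta-like cells at resolution 0.5, nor under the stricter filter for types other than beta-like and alpha-like, and the interaction without a low-count filter was not run. With 2 HC mice, and as few as 15 fibroblast-like cells in one of them, modest differences in stromal-like cells could not be detected at this depth.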

Other observations

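Among the 2681 unnamed cells, 1 cluster of 70 cells carried as much matrix RNA as the named vessel cells. Its summed level of the 33 genes was 26670 CPM, and 4 of its 10 leading genes were endothelial markers, but its level of mural markers, 0.282 relative to the cluster highest in each, was over the limit of 0.25, so it was left unnamed. It held 34 and 2 cells of the HC mice and 17, 17 and 0 cells of the chow mice, so HC mouse 1 and chow mice 1 and 2 gave nearly all of it. The other unnamed clusters summed to between 51.2 and 6073 CPM.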
